A study of Mus musculus with 71 samples.

Results

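The frontal cortex of mice with a burn of the skin was compared with that of sham-treated mice, in 10 burn and 8 sham libraries of the 71 libraries sequenced from 3 brain regions. These 18 libraries were chosen by the tissue label and by the treatment field of the labels. Burn mice had a brass rod of 19 mm, heated to over 90 °C, pressed for 10 s on the right dorsal flank, which gave a full-thickness injury of 7 to 8% of the body surface. Excision mice (n = 10), which here help to set the spread and serve as a second injury, had skin cut along a 12 mm punch mark on the posterior back. Sham mice were shaved there and not injured. All mice were C57BL/6J. Isoflurane, paracetamol for 5 days in the drinking water (1 mg/mL) and buprenorphine (0.1 mg/kg) were common to the groups. The sham group thus had the drugs but no wound, and its shaved site was not that of the burn. The titles place the libraries of each treatment in 2 batches, with 5 burn and 5 sham libraries in batch 1 and 5 burn and 3 sham libraries in batch 2. They name the batches by number and do not say what a batch was. Sham replicates 1 and 5, both of batch 1, carry the same number 5 in their titles and were counted as separate samples. Age, sex and time after injury were not in the labels used here. Nor was it stated whether each library was a separate animal, or whether regions came from the same animals, so p-values measure the spread between libraries, which may be technical. The tissue was mixed brain tissue, and in such bulk samples fewer cells of a type and less RNA per cell cannot be told apart.

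Proteins that enter the secretory pathway fold in the endoplasmic reticulum (ER), where BiP, the product of Hspa5, binds unfinished chains with the help of co-chaperones. Protein disulfide isomerases set their disulfide bonds. When unfolded protein builds up, the unfolded protein response raises these helpers through ATF6 and XBP1, which act at promoter elements that pair a CCAAT box with the letters CCACG. In neurons the same machinery folds receptors, channels and secreted peptides, while astrocytes and cells of vessels and meninges use it for matrix proteins such as collagen.

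Levels are given as CPM, a library's count of a gene scaled to its total, with TMM factors between libraries. Where 3 levels stand for a group, they are its lowest, median and highest library. Burn was compared with sham by the quasi-likelihood F test of edgeR over all 28 frontal cortex libraries with batch as a term. A gene was called at a Benjamini-Hochberg adjusted p under 0.05 over all 21077 genes tested. Fold changes are log2 values of burn over sham. Burn and sham libraries held 47.4 to 87.8 M counts, with a median of 68.8 M. Genes of cortical projection neurons were well detected. Slc17a7, the vesicular glutamate transporter of these cells, was at 1300 to 2040 CPM (median 1770) in burn libraries and 1260 to 1780 CPM (median 1500) in sham libraries. The layer regulator Tbr1 was at 81.4 to 165 CPM (median 126) in burn libraries and 60.8 to 115 CPM (median 97.4) in sham libraries. These genes do not set frontal from piriform cortex apart. In piriform burn and sham libraries Slc17a7 averaged 1540 and 1600 CPM, and Tbr1 125 and 111 CPM. Hippocampal burn and sham libraries had a similar Slc17a7 (means of 1600 and 1650 CPM) and less Tbr1 (51.7 and 50.3 CPM). Genes of neighbouring areas varied strongly within groups. The sum of 15 striatal projection neuron genes ran from 336 to 1910 CPM in burn and 325 to 2480 CPM in sham libraries. That of 14 olfactory bulb and migrating neuroblast genes ran from 226 to 1460 CPM in burn and 357 to 1070 CPM in sham libraries. Among sham libraries, replicate 1 had the fewest counts and the highest sum of 24 ribosomal protein genes (8660 CPM, against 3820 to 5310 CPM in other sham libraries). Replicate 2 had the highest sum of 18 endothelial genes (538 CPM, against 187 to 277 CPM). Titles contradict the treatment field in 3 batch 2 libraries: burn replicates 7 and 8 are titled sham and excision replicate 7 is titled burn. With these libraries left out, 32 genes were called. Over those genes, burn replicate 7 was nearer to the other batch 2 burn libraries than to batch 2 sham at 31 genes, burn replicate 8 at 18, and excision replicate 7 was nearer to excision than to burn at 26.

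After burn, 59 of 21077 genes were called (0.28%), of which 34 were higher (0.161%) and 25 lower (0.119%). By size, 19 of the 59 differed by more than 1.5-fold, and the absolute log2 fold changes ran from 0.18 to 1.70. The CPM ranges of the 10 burn and 8 sham libraries did not overlap for 15 of the called genes, against 19 of all genes tested (0.0901%). All 58 called genes that could be fitted in both batches had the same sign in each. When each burn and sham library was left out in turn, 16 of the 59 genes were called every time. Among the higher genes these included Usp43, Map3k21, Mansc1, Sh2d3c, Prr16, Mcm8, Tmem132d, Lrrc4c, Mfsd4a, 1110032F04Rik and Gm14340. Among the lower ones they were Pdia4, Creld2, Zhx2 and Plcd4. The number of calls depended on the libraries. It was 0 with the treatment taken from titles (2098 at an unadjusted p under 0.05) and 32 without the libraries whose labels disagree. Of the 58 called genes that could be fitted without those libraries, 29 were not called, Prr16 (adjusted p = 0.0615), Hunk (0.056), Banp (0.056) and Chaf1a (0.051) among them, while their fold changes were 0.902 to 1.11 times those with all libraries. The number was 6 without sham replicates 1 and 2, namely Pdia4, Map3k21, Mansc1, Sh2d3c, Mfsd4a and Gm14340.

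Several genes of ER folding were lower after burn. Of 22 ER chaperones and cofactors, 4 were called lower (Pdia4, Creld2, Hspa5 and Sdf2l1) and 0 higher, and 18 had negative fold changes. Of all genes tested, 0.119% were called lower and 53.6% were negative. The ER list and its members were chosen with earlier results of these data known. The sum of the list was 1800 to 2460 CPM in burn and 2300 to 2600 CPM in sham libraries. The median log2 fold change of the list was -0.16, where that of all genes tested was -0.02. The stretches before the start sites of 3 of the called ER genes are shown because they hold the element described above, or parts of it. They are the 250 bases upstream of each start in RefSeq (build GRCm38.p6), on the strand of the gene. The RefSeq window of Pdia4 also held a CCAAT box. It is not shown because it lies upstream of the transcripts in GENCODE, but it is counted in the shares below. For Hspa5 the GENCODE gene begins before the RefSeq start, inside the stretch shown. The element marked there is thus upstream of the RefSeq start but within the GENCODE gene. Capitals mark the ER stress element, which is CCAAT and CCACG with any 9 bases between, on either strand. They do so in Hspa5 (chr2:34771840-34772089, plus strand) and Creld2 (chr15:88819396-88819645, plus strand). In Sdf2l1 (chr16:17132384-17132633, minus strand), which had no full element, capitals mark the CCAAT box or its complement.
Hspa5: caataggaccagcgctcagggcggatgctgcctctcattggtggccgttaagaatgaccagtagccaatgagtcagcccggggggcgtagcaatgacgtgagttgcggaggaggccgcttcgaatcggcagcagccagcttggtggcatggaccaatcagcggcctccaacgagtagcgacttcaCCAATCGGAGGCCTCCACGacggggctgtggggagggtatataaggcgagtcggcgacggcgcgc
Creld2: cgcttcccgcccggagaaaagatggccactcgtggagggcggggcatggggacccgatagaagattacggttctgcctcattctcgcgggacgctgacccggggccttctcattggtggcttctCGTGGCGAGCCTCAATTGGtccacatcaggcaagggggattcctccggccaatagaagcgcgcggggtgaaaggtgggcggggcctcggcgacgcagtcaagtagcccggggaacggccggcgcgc
Sdf2l1: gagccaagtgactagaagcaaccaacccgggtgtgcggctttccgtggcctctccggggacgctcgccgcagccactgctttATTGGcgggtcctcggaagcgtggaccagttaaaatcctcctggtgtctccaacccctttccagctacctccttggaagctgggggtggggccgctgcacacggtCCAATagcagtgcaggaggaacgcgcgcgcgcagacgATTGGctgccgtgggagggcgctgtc
The element begins 65 bases before the RefSeq start of Hspa5 and 126 bases before that of Creld2, where it is read on the opposite strand. The boxes of Sdf2l1 begin 168, 63 and 26 bases upstream. A CCAAT box on either strand was in 37.4% of all windows, in 6 of 14 genes called lower and in 7 of 23 called higher that had a window. Over all 32851 RefSeq promoter windows, which run on past the start, 0.119% held the full element. Of the ER chaperone list, 17 genes had a window, and 7 of these held it: Hspa5, Creld2, Calr, Canx, Dnajc3, Hsp90b1 and Pdia6. Of the genes called lower, 2 of 14 held it (Hspa5 and Creld2), and of those called higher 0 of 23. The matches describe letters in a window and are not tests of binding.

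Pdia4 is a protein disulfide isomerase of the ER (ENSMUSG00000025823, GRCm38 chromosome 6, 47796141 to 47813430). Its level in burn replicates 1 to 10 was 35, 42.6, 39.5, 35, 37.5, 28.4, 28.9, 30.1, 26.5 and 27.7 CPM, against 48.8, 46.7, 47.6, 41.2, 48.7, 45, 42.6 and 46.2 CPM in sham replicates 1 to 8. A single burn library, replicate 2 at 42.6 CPM, reached into the sham range, where the lowest value was 41.2 CPM, and the other burn libraries lay below every sham library. The difference was called (log2 fold change -0.45, SE 0.07, adjusted p = 0.00403) and remained so in each of the 18 fits that left out 1 library. Hspa5, the gene of BiP (ENSMUSG00000026864, GRCm38 chromosome 2, 34771970 to 34777547), was at 253, 316, 295, 285, 276, 199, 220, 205, 176 and 176 CPM in burn replicates 1 to 10, against 331, 334, 341, 299, 329, 304, 314 and 338 CPM in sham replicates 1 to 8. The 5 burn libraries of batch 2 held 176 to 220 CPM, while those of batch 1 held 253 to 316 CPM and 1 of them passed the lowest sham value of 299 CPM. The difference was called (log2 fold change -0.42, SE 0.08, adjusted p = 0.0203). By batch, the fold change was -0.20 in batch 1 and -0.69 in batch 2. The call held in 16 of the 18 fits without 1 library, with a largest adjusted p of 0.0613 without sham replicate 8. The difference between batches was not called (log2 difference of batch 2 minus batch 1 -0.51, adjusted p = 0.159 in edgeR).

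Creld2, whose product sits in the ER and is raised by ER stress, has the identifier and position ENSMUSG00000023272, GRCm38 chromosome 15, 88819646 to 88826683. It was at 11.3, 14.1 and 17.3 CPM in burn libraries, against 17.2, 19.4 and 24.8 CPM in sham libraries. The ranges met at the edge, where burn replicate 6 (17.3 CPM) stood above sham replicate 5 (17.2 CPM), and the difference was called (log2 fold change -0.49, SE 0.09, adjusted p = 0.00998). Sdf2l1, a partner of BiP in the ER lumen, was at 7.3, 10 and 14.3 CPM in burn libraries, against 12.3, 15 and 21.5 CPM in sham libraries. Burn replicates 2, 3, 4 and 6 lay within the sham range, and the call (log2 fold change -0.54, SE 0.12, adjusted p = 0.0406) held in 5 of the 18 fits without 1 library. Xbp1, the transcription factor of the unfolded protein response, was at 68.1, 86.6 and 97.5 CPM in burn libraries, against 92.5, 104 and 125 CPM in sham libraries. It was called lower (log2 fold change -0.33, SE 0.06, adjusted p = 0.0203), and burn replicate 2, at 97.5 CPM, was the burn library that reached into the sham range. This call held in 15 of the 18 fits. Without the libraries whose labels disagree, Sdf2l1 had -0.50 and Xbp1 -0.31, and neither was called (adjusted p = 0.0853 and 0.056). Without sham replicates 1 and 2, adjusted p was 0.0733 for Hspa5, 0.08 for Creld2, 0.216 for Sdf2l1 and 0.123 for Xbp1, with fold changes of -0.44, -0.43, -0.48 and -0.31, while Pdia4 remained called. Among list members that were not called, Manf, a factor secreted on ER stress and highest in sham replicate 1 (62.8 CPM), had a fold change of -0.37, adjusted p = 0.0738. Pdia6, another disulfide isomerase, had -0.32, adjusted p = 0.0677, and the lectin chaperone Calr -0.27, adjusted p = 0.122. Hsp90b1, the ER member of the HSP90 family, had -0.12, adjusted p = 0.524, with 0.05 in batch 1 and -0.33 in batch 2.

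**Figure D1:**
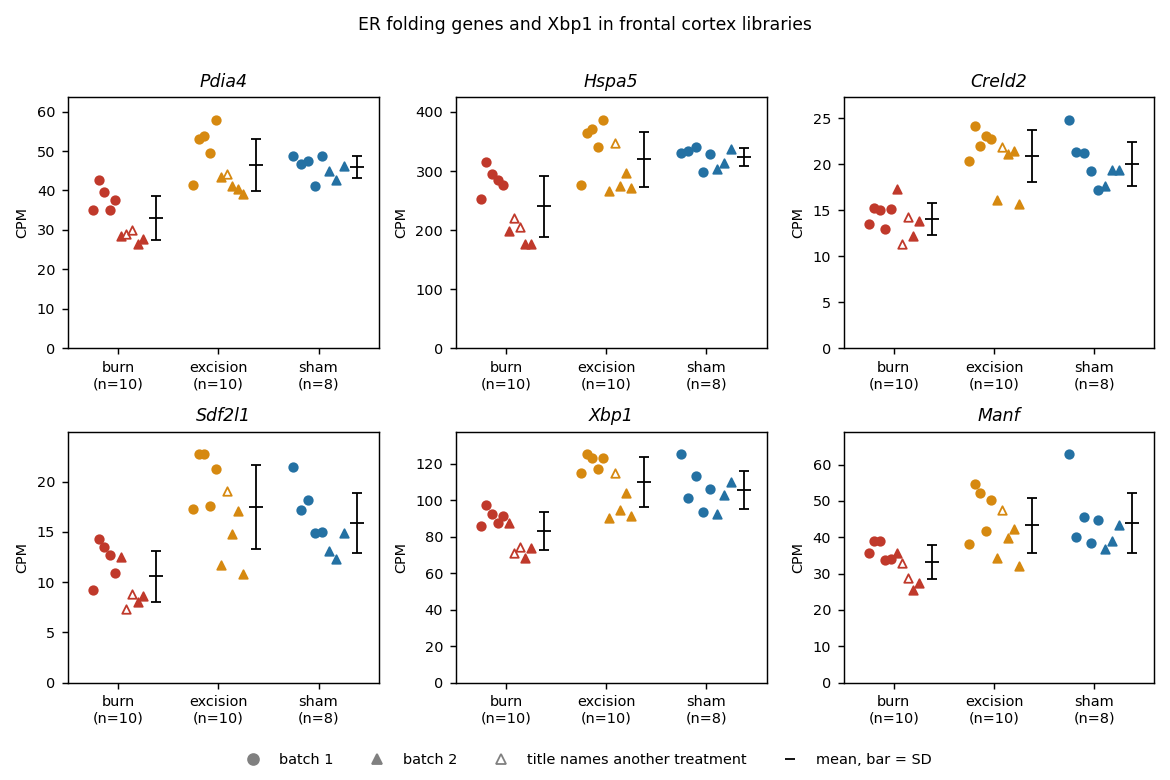
CPM of Pdia4, Hspa5, Creld2, Sdf2l1, Xbp1 and Manf in each frontal cortex library by treatment, with circles for batch 1, triangles for batch 2, open symbols for libraries whose title names another treatment, and mean with SD beside each group. The burn means are the lowest of the 3 groups for each of these genes, while the burn and sham ranges overlap in each. For Sdf2l1 burn libraries reach 14.3 CPM and sham libraries begin at 12.3 CPM, and for Manf the values are 39.1 and 36.7 CPM. For Hspa5 the batch 2 burn libraries (176 to 220 CPM) lie below those of batch 1 (253 to 316 CPM).

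Other lists of the response held few calls. Of 17 sensors and transcription factors of the unfolded protein response, Xbp1 was called lower, 8 were positive and 9 negative, and the median fold change was -0.01. The shares over all genes tested were 0.119% called lower and 53.6% negative. Ddit3, the gene of the death-linked factor CHOP, had -0.34, adjusted p = 0.138, Atf6 had 0.25, adjusted p = 0.308, and Atf3, an early stress factor, had -1.21, adjusted p = 0.139, with a level of 0.429 to 3.37 CPM (median 1.05) in burn libraries and 0.482 to 6.93 CPM (median 1.82) in sham libraries. Of 20 genes of ER-associated degradation and translocation 0 were called, with a smallest adjusted p of 0.376 and a median of -0.05. Of 15 amino acid response targets of ATF4 0 were called, with a smallest adjusted p of 0.261 and a median of 0.03. The 22 heat shock proteins of cytosol and mitochondria held 0 calls and a median of -0.08. The 5 genes most like Hspa5 by Spearman correlation over the 28 frontal cortex libraries, after batch means were removed, were Pdia4 (0.945), Xbp1 (0.853), Ahsa2 (0.831), Mlec (0.818) and Sdf2l1 (0.809). These libraries share their treatment groups, so the correlations are given as a description. Ahsa2 and Mlec, a relative of an HSP90 cochaperone and an ER lectin, were not called (-0.25 and -0.18).

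The same genes were lower in burn than in excision libraries. The excision comparison uses the same burn libraries, so its values are set beside those above and are not separate evidence. In it 44 of 21077 genes were called (0.209%). Against excision, the fold change was -0.49 (adjusted p = 0.000334) for Pdia4 and -0.43 (adjusted p = 0.0123) for Hspa5. It was -0.56 (adjusted p = 0.00079) for Creld2, -0.72 (adjusted p = 0.00161) for Sdf2l1 and -0.41 (adjusted p = 0.00151) for Xbp1. Excision over sham differed by 0.04, 0.01, 0.07, 0.18 and 0.08 in that order of genes, with 0 genes called among all tested by edgeR (0%; 1007 at an unadjusted p under 0.05, and 0 by DESeq2).

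Genes that were higher after burn included signalling enzymes, adaptors and a Wnt ligand. Usp43, a ubiquitin-specific protease (ENSMUSG00000020905, GRCm38 chromosome 11, 67854523 to 67922153), was at 2.54, 4.32 and 6.51 CPM in burn libraries, against 0.963, 2.02 and 2.63 CPM in sham libraries. A single burn library, replicate 2 at 2.54 CPM, lay inside the sham range, and the difference was called (log2 fold change 1.25, SE 0.23, adjusted p = 0.0153). Map3k21, a mixed-lineage kinase (ENSMUSG00000031853, GRCm38 chromosome 8, 125910450 to 125947440), was at 2.96, 2.48, 3.63, 3.04, 1.96, 3.97, 4.29, 2.43, 2.22 and 2.53 CPM in burn replicates 1 to 10, against 1.36, 1.4, 1.62, 1.63, 1.39, 1.38, 0.992 and 1.1 CPM in sham replicates 1 to 8. The groups did not overlap (log2 fold change 1.13, SE 0.18, adjusted p = 0.00632). Wnt9a, a secreted Wnt ligand (ENSMUSG00000000126, GRCm38 chromosome 11, 59306928 to 59333552), was at 18.9, 20.2, 20.4, 21.4, 18.3, 17.8, 26.5, 14.6, 17.1 and 15.6 CPM in burn replicates 1 to 10, against 13.8, 10.2, 13, 14, 10.1, 10.5, 7.95 and 13.4 CPM in sham replicates 1 to 8. The lowest burn value, 14.6 CPM, stood above the highest sham value of 14 CPM (log2 fold change 0.74, SE 0.15, adjusted p = 0.0203). The call of Wnt9a held in 15 of the 18 fits without 1 library, as did that of Hunk, and the call of Ninl held in 17.

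Sh2d3c, an SH2-domain adaptor of the NSP family (ENSMUSG00000059013, GRCm38 chromosome 2, 32721055 to 32755512), was at 21, 24.4 and 34.5 CPM in burn libraries, against 15.8, 16.8 and 20.7 CPM in sham libraries. The margin between the groups was narrow, with 21 CPM in the lowest burn and 20.7 CPM in the highest sham library, and the difference was called (log2 fold change 0.57, SE 0.09, adjusted p = 0.00403). Hunk, a kinase related to AMPK, was at 16.7, 22.8 and 30.5 CPM in burn libraries, against 13.7, 15 and 16.1 CPM in sham libraries, without overlap (log2 fold change 0.61, SE 0.12, adjusted p = 0.0203). Ninl, a centrosomal protein related to ninein, was at 5.75, 6.8 and 9.94 CPM in burn libraries, against 3.58, 4.62 and 5.38 CPM in sham libraries, also without overlap (log2 fold change 0.63, SE 0.12, adjusted p = 0.0203). Prr16, whose human counterpart has been linked to cell size, was at 9.92, 11.8 and 14.9 CPM in burn libraries, against 5.55, 8.11 and 9.57 CPM in sham libraries and did not overlap either (log2 fold change 0.56, SE 0.11, adjusted p = 0.0203). Mansc1, a membrane protein, was at 7.22, 10.6 and 12.4 CPM in burn libraries, against 5.75, 6.9 and 7.8 CPM in sham libraries, with overlap (log2 fold change 0.58, SE 0.10, adjusted p = 0.0096). Mfsd4a, a membrane transporter of the major facilitator family, was at 39.1, 50.4 and 62.8 CPM in burn libraries, against 30.8, 33.6 and 43.3 CPM in sham libraries, and sham replicate 2 (43.3 CPM) lay within the burn range (log2 fold change 0.54, SE 0.08, adjusted p = 0.00425).

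**Figure D2:**
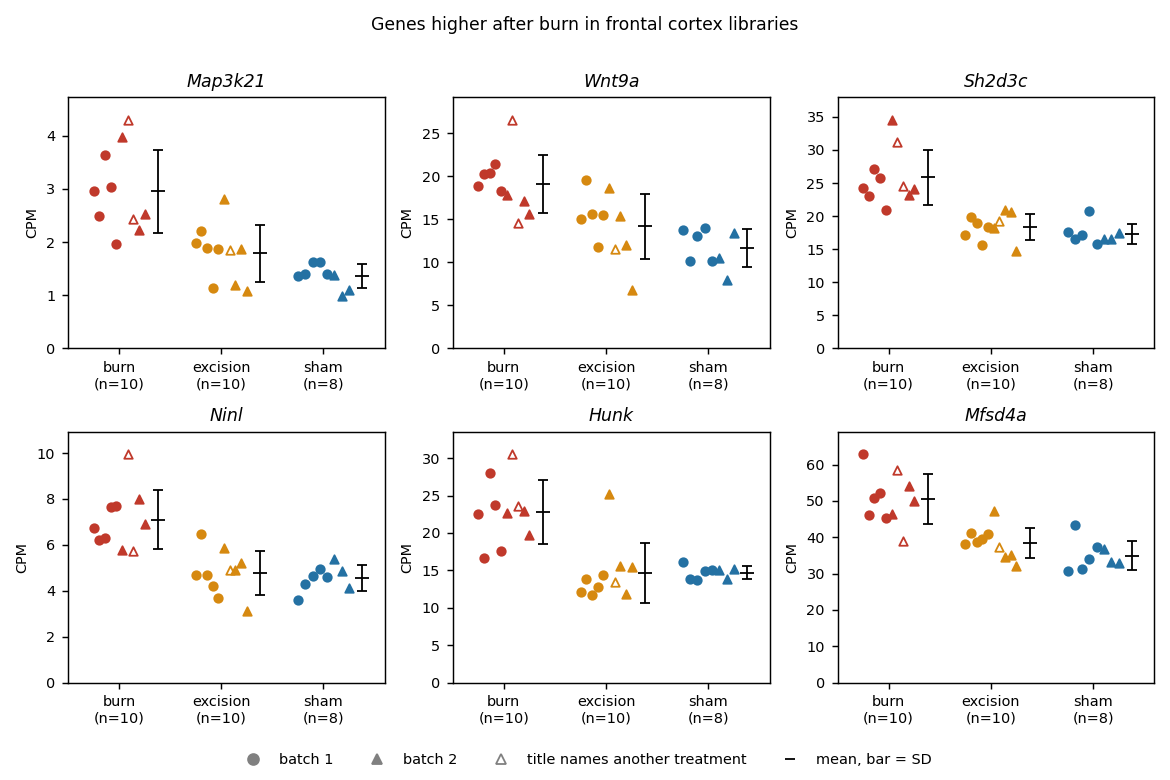
CPM of Map3k21, Wnt9a, Sh2d3c, Ninl, Hunk and Mfsd4a in each frontal cortex library by treatment, with circles for batch 1, triangles for batch 2, open symbols for libraries whose title names another treatment, and mean with SD beside each group. For Map3k21, Wnt9a, Sh2d3c, Ninl and Hunk every burn library is above every sham library, while Mfsd4a overlaps through sham replicate 2 at 43.3 CPM.

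Another large rise was that of Pla2g4e, a cytosolic phospholipase A2, at 2.54 to 9.16 CPM (median 5.43) in burn libraries and 1.48 to 4.48 CPM (median 2.94) in sham libraries (log2 fold change 0.90, SE 0.18, adjusted p = 0.0203). Tox, a nuclear HMG-box protein, was at 21.6 to 38.2 CPM (median 30.2) in burn libraries and 14.2 to 22.5 CPM (median 19.8) in sham libraries (log2 fold change 0.62, SE 0.14, adjusted p = 0.0495), and Pak7, a p21-activated kinase of neurons, at 24.3 to 64.6 CPM (median 51.8) in burn libraries and 23.1 to 38.8 CPM (median 35.4) in sham libraries (log2 fold change 0.58, SE 0.13, adjusted p = 0.0495). Tox and Pak7 overlapped between groups and were called in 3 of the 18 fits that left out a library. Of 18 Wnt ligands and feedback targets, Wnt9a was called higher, 7 were positive and 11 negative, and the median was -0.08. The shares over all genes tested were 0.161% called higher and 46.4% positive. Wnt7a, a ligand that acts on brain vessels, was not called (-0.64, adjusted p = 0.0594).

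Lrrc4c, a postsynaptic adhesion protein that binds netrin-G, was at 92.5, 141 and 167 CPM in burn libraries, against 71.9, 91.7 and 115 CPM in sham libraries (log2 fold change 0.55, SE 0.10, adjusted p = 0.0203). Slitrk1, another synaptic adhesion protein, was at 65.8 to 120 CPM (median 94.9) in burn libraries and 57.7 to 75.8 CPM (median 70.5) in sham libraries (log2 fold change 0.50, SE 0.11, adjusted p = 0.0385). Sv2b, a synaptic vesicle protein, was at 358 to 716 CPM (median 586) in burn libraries and 323 to 452 CPM (median 400) in sham libraries (log2 fold change 0.49, SE 0.11, adjusted p = 0.0467), with 0.67 in batch 1 and 0.27 in batch 2. In batch 1 all 5 burn libraries, at 576 to 716 CPM, lay above the sham libraries at 323 to 452 CPM, while in batch 2 the burn libraries, at 358 to 597 CPM, overlapped the sham libraries at 342 to 376 CPM. Omg, an oligodendrocyte and neuron glycoprotein that limits axon growth, had 0.36, adjusted p = 0.0495, and Sprn, a relative of the prion protein, had 0.48, adjusted p = 0.0329. Tmem132d had 0.35, adjusted p = 0.0177 and Creg2, a secreted brain glycoprotein, 0.48, adjusted p = 0.0257. Of 19 synaptic vesicle and release genes, Sv2b was called, 17 were positive and the median was 0.16. Of all genes tested, 46.4% were positive and 0.161% were called higher. The call of Sv2b held in 3 of the 18 fits without 1 library. Syt1, the calcium sensor of release, had 0.24, adjusted p = 0.0677, Nsf, which recycles SNARE complexes, 0.23, adjusted p = 0.164, and Snap25, itself a SNARE protein, 0.26, adjusted p = 0.281.

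A few called genes work on DNA and chromatin. Chaf1a, a subunit of the histone chaperone that follows replication forks, was at 3.55, 4 and 5.12 CPM in burn libraries, against 2.42, 2.81 and 3 CPM in sham libraries, without overlap (log2 fold change 0.54, SE 0.10, adjusted p = 0.0203). Mcm8, a helicase of recombination repair, had 0.43, adjusted p = 0.0203, and Exo1, a repair exonuclease at no more than 1.07 CPM in any burn or sham library, had 1.06, adjusted p = 0.0495. Of 15 Hist1h2b genes tested, which encode histone H2B and were grouped after their values were seen, 4 were called lower, where 0.119% of all genes were. All 15 were negative, where 53.6% of all genes were. Hist1h2bp was at 0.8, 1.04 and 1.26 CPM in burn libraries, against 1.34, 1.48 and 1.95 CPM in sham libraries, without overlap (log2 fold change -0.60, SE 0.13, adjusted p = 0.0404). Hist1h2bl, Hist1h2bq and Hist1h2br had -0.60, -0.59 and -0.59. Their sequences are nearly identical, so counts can be split among copies or shared by them, and single members are uncertain. Hist1h2bq was at 2.37, 3.54 and 4.25 CPM in burn libraries and Hist1h2br at 2.37, 3.54 and 4.27 CPM, each with a lowest count of 146. Whether the same reads were counted for both was not tested. The numbers of Hist1h2b genes called and negative may therefore not be separate observations. Hist1h2bl was called in 3, Hist1h2bp in 5, and Hist1h2bq and Hist1h2br in 15 of the 18 fits without 1 library. Without sham replicates 1 and 2 these 4 genes were not called (adjusted p = 0.245, 0.205, 0.15 and 0.153, with fold changes of -0.45, -0.54, -0.47 and -0.47). Other called genes that were higher were Ext1, an enzyme of heparan sulfate synthesis (0.27, adjusted p = 0.0236), and Mlip, a lamin-interacting protein (0.33, adjusted p = 0.0414). They also held Rbm11, an RNA-binding splicing factor (0.50, adjusted p = 0.0495), and Zfp46, a zinc-finger protein (0.36, adjusted p = 0.0207). Armcx5 (0.47, adjusted p = 0.0414) and Mettl27 (0.49, adjusted p = 0.0495) were higher too. A further 5 higher genes have clone-type names. They are 1110032F04Rik (0.60, adjusted p = 0.0172), A930002C04Rik (1.25, adjusted p = 0.0203) and Gm12198 (1.21, adjusted p = 0.0495). The others are Gm14340 (1.46, adjusted p = 0.0146) and Gm49415 (1.70, adjusted p = 0.0404). All but the first averaged under 1 CPM in both groups.

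Lower genes outside the ER list included nuclear regulators. Zhx2, a zinc-finger homeobox repressor (ENSMUSG00000071757, GRCm38 chromosome 15, 57694665 to 57839832), was at 11.4, 15 and 17.9 CPM in burn libraries, against 18.5, 20.6 and 23.8 CPM in sham libraries, without overlap (log2 fold change -0.51, SE 0.09, adjusted p = 0.00998). Banp, a DNA-binding protein of the nuclear matrix (ENSMUSG00000025316, GRCm38 chromosome 8, 121949750 to 122029258), was at 16, 20.5 and 25.8 CPM in burn libraries, against 22.8, 30.6 and 32.8 CPM in sham libraries, and sham replicate 5 at 22.8 CPM fell within the burn range (log2 fold change -0.49, SE 0.10, adjusted p = 0.0203). Zbtb40, a zinc-finger protein of the BTB class, was at 8.83, 12 and 14.1 CPM in burn libraries, against 13, 17 and 19 CPM in sham libraries, with overlap (log2 fold change -0.49, SE 0.10, adjusted p = 0.0295). Plcd4, a phospholipase C, was at 8.36, 9.72 and 10.6 CPM in burn libraries, against 11.1, 13 and 16.6 CPM in sham libraries, without overlap (log2 fold change -0.48, SE 0.09, adjusted p = 0.0146). Map3k19, a kinase, was at 3.38, 4.73 and 6.8 CPM in burn libraries, against 5.54, 7.44 and 10.5 CPM in sham libraries (log2 fold change -0.64, SE 0.14, adjusted p = 0.0414), with -0.40 in batch 1 and -0.96 in batch 2.

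A second set of lower genes is known from matrix and non-neuronal cells. Serpinh1, the collagen chaperone HSP47, was at 8.73, 13 and 19.6 CPM in burn libraries, against 16, 19.7 and 22.9 CPM in sham libraries, with overlap (log2 fold change -0.55, SE 0.13, adjusted p = 0.0495), and was called in 3 of the 18 fits without 1 library. Sparc, a matrix glycoprotein made by astrocytes and vessels, was at 131, 150 and 194 CPM in burn libraries, against 185, 200 and 247 CPM in sham libraries (log2 fold change -0.43, SE 0.09, adjusted p = 0.0404), with -0.59 in batch 1 and -0.18 in batch 2. Pdpn, a membrane glycoprotein of meninges and glia, was at 8.57, 10.1 and 13.3 CPM in burn libraries, against 10.6, 13.2 and 15.2 CPM in sham libraries (log2 fold change -0.40, SE 0.09, adjusted p = 0.0399). Of 17 collagen chain and collagen-modifying genes tested, Serpinh1 was called lower, 14 were negative and the median was -0.25. Of all genes tested, 0.119% were called lower and 53.6% were negative. Plod1, a lysyl hydroxylase, had -0.37, adjusted p = 0.0599, and the prolyl hydroxylase subunits P4ha1 and P4ha2 had -0.27, adjusted p = 0.0677 and -0.37, adjusted p = 0.164. Gpr17, a receptor of oligodendrocyte precursors, was at 35.3, 40.2 and 50.3 CPM in burn libraries, against 42, 52.6 and 71.3 CPM in sham libraries (log2 fold change -0.38, SE 0.08, adjusted p = 0.0399), the called member of 14 precursor genes, of which 13 were negative. The call of Gpr17 held in 5 of the 18 fits without 1 library. Further lower calls were Tmem100, found in endothelium (-0.47, adjusted p = 0.0236), Itpkb, an inositol trisphosphate kinase (-0.32, adjusted p = 0.0273), and Cdo1, a cysteine dioxygenase (-0.32, adjusted p = 0.0305). They included Arhgef19, a guanine nucleotide exchange factor (-0.39, adjusted p = 0.0257), and Eif4ebp2, a repressor of translation initiation in neurons (-0.24, adjusted p = 0.0495). Nadk, the cytosolic NAD kinase (-0.18, adjusted p = 0.0495), and Tmem28 (-0.32, adjusted p = 0.0495) were lower as well. Arhgef19, Eif4ebp2 and Nadk did not overlap between groups.

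Cell type lists held few calls. All 17 astrocyte genes had negative fold changes, with 0 called, a median of -0.22 and a smallest adjusted p of 0.0668, that of Mlc1, a membrane protein of astrocyte endfeet (-0.32). Of 18 microglia genes 17 were negative, with a median of -0.14 and 0 called, and of 18 endothelial genes 16 were negative, with a median of -0.24 and 0 called. These counts stand beside 11295 of all 21077 genes that were negative. In batch 2 the endothelial median was 0.05, against -0.41 in batch 1. Of 17 excitatory neuron and layer genes 13 were positive, with 0 called and a median of 0.11, and of 18 GABAergic interneuron genes 12 were negative, with 0 called and a median of -0.27. The corticofugal regulator Fezf2 had 0.67, adjusted p = 0.138, and Cux1, of upper layers, -0.28, adjusted p = 0.135. Genes of neighbouring areas had larger medians, and their part in the results was not tested beyond the covariate fit given next. Striatal genes had a median of -0.39, made up of -1.10 in batch 1 and 0.83 in batch 2, and olfactory bulb genes one of -0.81 (-1.15 and -0.41). The 24 cytosolic ribosomal protein genes were all negative (median -0.21), with -0.46 in batch 1 and 0.11 in batch 2. With the sums of the striatal and olfactory bulb lists as covariates, 24 genes passed, of which 14 belong to the 59; this fit was chosen with the values above in view. Pdia4 (-0.51), Hspa5 (-0.52), Creld2 (-0.53), Sdf2l1 (-0.70) and Xbp1 (-0.38) were called in that fit, as were Map3k21 (0.91), Sh2d3c (0.45) and Mfsd4a (0.50). Wnt9a (0.50), Usp43 (0.95), Sv2b (0.35) and Serpinh1 (-0.43) were not.

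**Figure D3:**
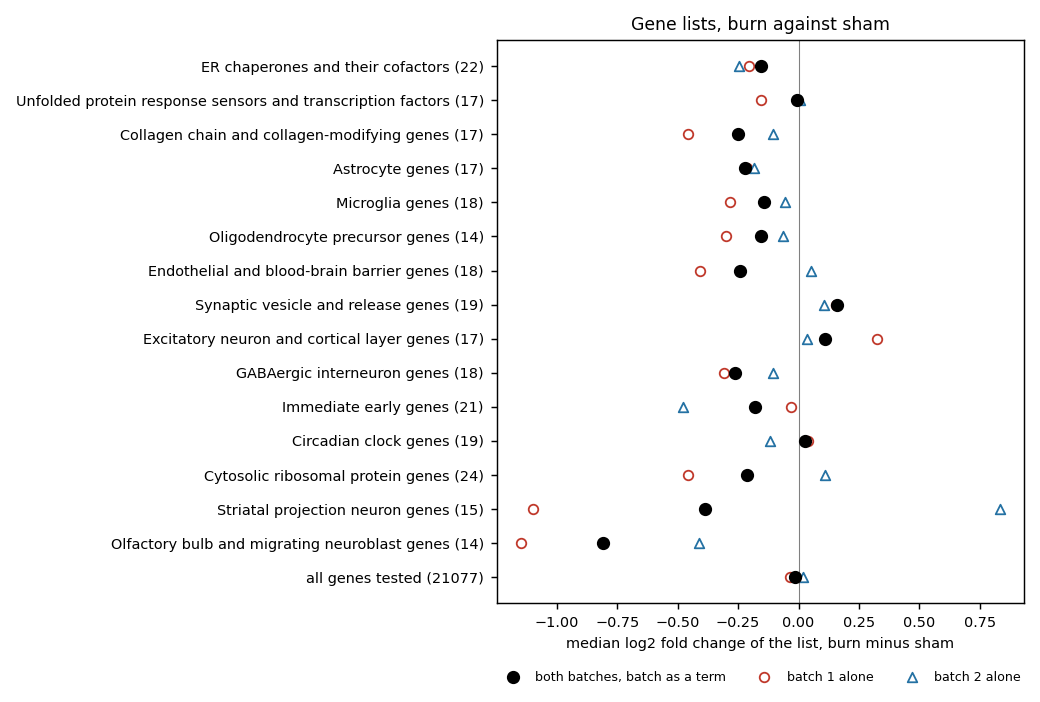
Median log2 fold change of burn over sham for 15 gene lists and all genes tested (number of genes in parentheses), in the fit over both batches (black), batch 1 alone (open circles) and batch 2 alone (open triangles). The ER chaperone and astrocyte lists lie below 0 in each batch, while the striatal list lies at -1.10 in batch 1 and 0.83 in batch 2.

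**Figure D4:**
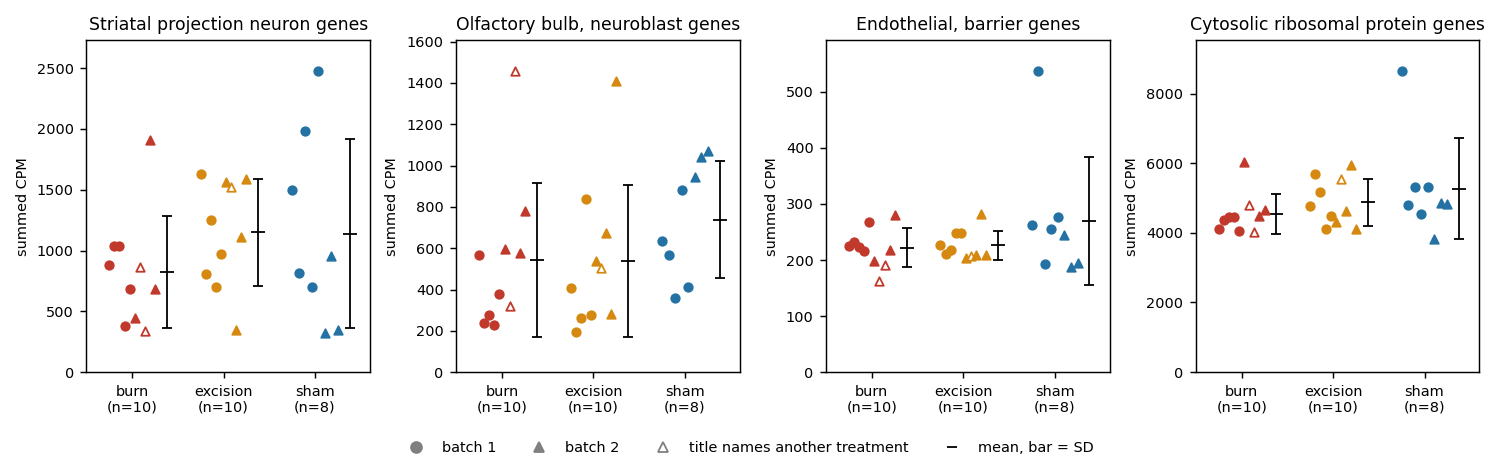
Summed CPM of the striatal, olfactory bulb, endothelial and ribosomal protein lists in each frontal cortex library by treatment, with circles for batch 1, triangles for batch 2, open symbols for libraries whose title names another treatment, and mean with SD beside each group. Sham replicate 2 holds the highest endothelial sum (538 CPM) and sham replicate 1 the highest ribosomal protein sum (8660 CPM).

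Genes often read in injury and stress were not called. The astrocyte filament gene Gfap was at 55.9, 127 and 187 CPM in burn libraries, against 109, 159 and 194 CPM in sham libraries (log2 fold change -0.33, SE 0.17, adjusted p = 0.412), with overlap. Aif1, read as a marker of microglia, was at 3.54, 4.46 and 5.85 CPM in burn libraries, against 4.14, 5.37 and 9.9 CPM in sham libraries (log2 fold change -0.25, SE 0.14, adjusted p = 0.468), again with overlap. Complement C4b had -0.23, adjusted p = 0.712, the neurotrophin Bdnf 0.24, adjusted p = 0.358, the glucocorticoid target Fkbp5 -0.20, adjusted p = 0.462 and the activity gene Fos -0.28, adjusted p = 0.708. The myelin gene Mbp had -0.17, adjusted p = 0.721, the endothelial tight junction gene Cldn5 -0.42, adjusted p = 0.431 and the haemoglobin gene Hbb-bs 0.35, adjusted p = 0.654. Ttr, made by the choroid plexus, was listed at no more than 1.14 CPM in burn and 4.32 CPM in sham libraries (-1.33, adjusted p = 0.546). Of 23 glucocorticoid-induced genes, 24 interferon response genes, 19 NF-kB and cytokine genes and 17 reactive astrocyte genes, 0 were called in each list.

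Results by batch were as follows. Fitted alone, batch 1 gave 1328 calls of 20430 genes (6.5%) and batch 2 gave 0 of 21846 (0%; 1178 at an unadjusted p under 0.05). The test of the difference between batches called 0 of 22627 genes in edgeR (0%; 4173 at an unadjusted p under 0.05). For immediate early genes and some clock genes the values of the batches stood apart. Of 21 immediate early genes 0 were called, with a median of -0.18 (-0.03 in batch 1 and -0.48 in batch 2), and Fosb, which forms AP-1 with Jun proteins, had -0.30 in batch 1 and -1.07 in batch 2 (-0.65, adjusted p = 0.108 over both). Of 19 circadian clock genes 0 were called, 11 were positive and 8 negative, where 46.4% of all genes were positive. The median of this list was 0.03 over both batches, with 0.04 in batch 1 and -0.12 in batch 2. The clock output gene Dbp had -0.10 in batch 1 and 1.16 in batch 2, and the clock repressor Nr1d1 0.08 in batch 1 and 0.88 in batch 2 (0.41, adjusted p = 0.0677 over both). Per2 and Cry1, also clock genes, had -0.28 and -0.38 over both and were not called. Without the libraries whose labels disagree, 4 of 22509 genes were called for a difference between batches. They were Nr1d1, Ciart, Dbp and Pnpla2, with log2 differences of batch 2 minus batch 1 of 0.85, 1.46, 1.49 and 0.96. In that fit batch 2 rested on few libraries, namely burn replicates 6, 9 and 10 and 3 sham libraries. Nr1d1, Ciart and Dbp belong to the clock. Times of tissue collection were not in the labels used here.

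**Figure D5:**
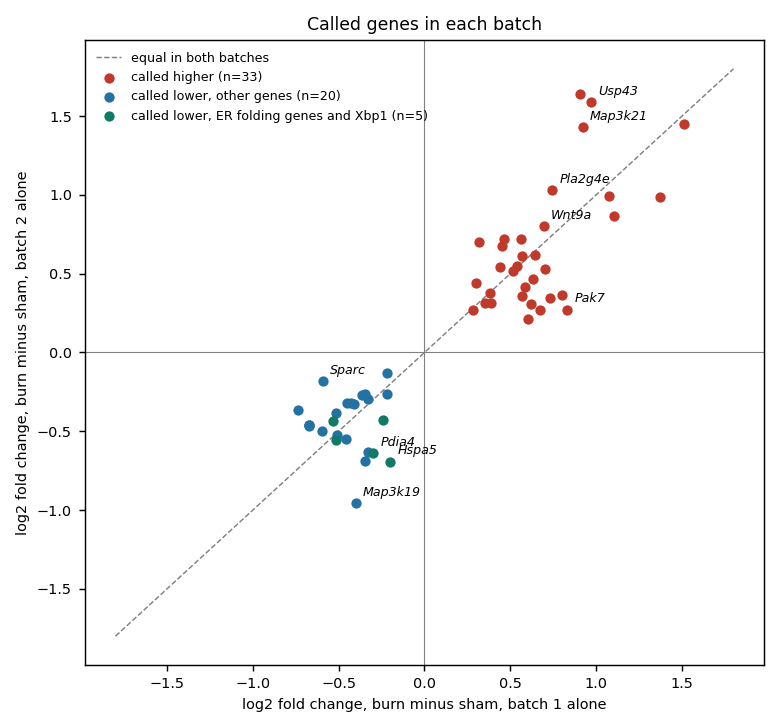
Log2 fold change of burn over sham in batch 1 alone (horizontal axis) and batch 2 alone (vertical axis) for the 58 called genes that could be fitted in both; red points were called higher, blue points lower and green points are the called ER folding genes with Xbp1. All points lie in the quadrants of equal sign, which follows in part from choosing genes on both batches together, and Hspa5 lies at -0.20 and -0.69.

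Burn over sham in the other regions rests on other libraries. Whether these come from the same animals was not in the labels used here, so they may not be separate evidence. The tests of differences between regions treated all libraries as independent. In the hippocampus, with 10 burn and 9 sham libraries, 202 of 19574 genes were called (1.03%), and 14 of the 59 frontal cortex genes were among them, which is 23.7% of the frontal cortex calls and 6.93% of the hippocampal ones. Of 56 frontal cortex genes tested there, 50 had the same sign (89.3%), where 61.2% of all 18994 genes tested in both regions did. Banp had -0.69 (adjusted p = 0.000275) in the hippocampus, Zbtb40 -0.65 (adjusted p = 0.00134) and Creld2 -0.52 (adjusted p = 0.00162). Sdf2l1 had -0.60 (adjusted p = 0.00906) there, Xbp1 -0.34 (adjusted p = 0.0146), Hspa5 -0.41 (adjusted p = 0.0211) and Pdia4 -0.35 (adjusted p = 0.0482). Among raised genes, Wnt9a had 0.73 (adjusted p = 0.0121), Mansc1 0.41 (adjusted p = 0.0162), Map3k21 0.55 (adjusted p = 0.0244) and Zfp46 0.40 (adjusted p = 0.00236). Usp43, with 0.19 (adjusted p = 0.727), was not called there. The test of the difference between the regions called 0 of 21610 genes in edgeR (0%; 1847 at an unadjusted p under 0.05), so none of the genes is shown to differ between frontal cortex and hippocampus. In the piriform cortex, with 5 burn and 5 sham libraries, 0 of 21004 genes were called in edgeR (0%; 896 at an unadjusted p under 0.05), and 51 of 58 frontal cortex genes had the same sign (87.9%), where 60.9% of all 20481 genes tested in both did. The titles of the piriform libraries name the frontal cortex, and piriform sham replicate 2 is titled excision. Region and treatment were taken from the tissue label and the treatment field. In the piriform cortex Hspa5 had a fold change of -0.12, Pdia4 of -0.12, Wnt9a of 0.07 and Map3k21 of 0.09. The difference from the frontal cortex was called for 0 of 22749 genes (0%; 752 at an unadjusted p under 0.05).

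The other named genes, set beside excision, share their burn or sham libraries with the results above. Zhx2 had -0.49 (adjusted p = 0.00666) in burn over excision, Banp -0.66 (adjusted p = 0.00079), Zbtb40 -0.52 (adjusted p = 0.0182) and Sh2d3c 0.49 (adjusted p = 0.00377). Hunk had 0.65 (adjusted p = 0.00728), Ninl 0.57 (adjusted p = 0.0236), Prr16 0.51 (adjusted p = 0.0236), Mansc1 0.48 (adjusted p = 0.0192) and Mfsd4a 0.39 (adjusted p = 0.0236). Usp43 had 0.67 (adjusted p = 0.21), Map3k21 0.73 (adjusted p = 0.0662), Wnt9a 0.43 (adjusted p = 0.218) and Serpinh1 -0.38 (adjusted p = 0.211), which were not called. For Usp43 and Map3k21, excision over sham was 0.58 and 0.40, and for Zhx2 and Sh2d3c it was -0.02 and 0.08. For other genes called in burn over sham, excision stood nearer to burn than to sham. Sparc had -0.03 (adjusted p = 0.891) in burn over excision and -0.39 in excision over sham, and Mettl27 0.05 (adjusted p = 0.868) and 0.44. Hist1h2bl had -0.12 (adjusted p = 0.713) and -0.47, and Hist1h2bp -0.19 (adjusted p = 0.55) and -0.41. For Tmem100 the values were -0.10 (adjusted p = 0.671) and -0.37. None of these excision over sham values was called. The 17 astrocyte genes had a median of 0.05 in burn over excision and -0.27 in excision over sham.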

How the data were processed

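The deposited values are counts per gene made by the authors, in a table of 55416 Ensembl identifiers and 71 libraries, and no row named anything other than a gene. Reads were single-end runs of 100 bp per the labels. Per the submitters' processing notes the build was GRCm38 and the tools were STAR, fastp, FastQC 0.11.3 and DESeq2 1.24.0. How reads were counted, on which annotation and with what strand setting is not given in the sources used here, so genes that overlap or have antisense partners cannot be told apart by strand. Symbols and positions come from GENCODE M21 (GRCm38), which matched 52135 identifiers; the other 3281 held 0.89% of frontal cortex counts. Promoter sequences are from RefSeq (GRCm38.p6).

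Counts were fitted in edgeR 4.0.16 (R 4.3.3) with TMM factors, filterByExpr on treatment, and batch as an additive term over 28 frontal cortex libraries. Interaction terms tested differences between batches and regions. Genes were named when called, at a mean of at least 1 CPM, equal in sign between batches and with an assigned symbol: the 12 largest changes in each direction and up to 6 called members of each of 46 gene lists, besides a fixed panel of Hspa5, Hbb-bs, Ttr, Cldn5, Mbp, Fos, Fkbp5, Bdnf, C4b, Aif1 and Gfap. The remaining called genes and the uncalled list members were named after their values were seen. Some genes that met the rule are not reported here. The members and lists were chosen with earlier results of these data known. The alternatives comprised the Wald test of DESeq2 1.42.0, its size factors, the omission of the count filter, other sets of libraries, labels and batch terms, sva 3.50.0, and covariates. All 118 pairs of libraries within groups differed by more than counting error (lowest chi-square per degree of freedom 22.4, with 0 identical pairs). In data simulated for burn over sham from 20778 genes, 16% of genes changed 1.25-fold, 60% at 1.5-fold, 90% at 2-fold and 100% at 4-fold were recovered, with 8 false calls. Those counts were drawn independently, without batch differences or variation shared between genes, and only genes of at least 1 CPM were changed. Recovery in the real libraries was not tested.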

Additional observations from a re-analysis of the deposited data

Results flagged for a closer look

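Within the burn and the sham libraries, 256 sets of values (named genes and list sums) were examined for a highest or lowest library that stood apart by Dixon's ratio, and 29 had one, where chance gives about 1 in 20, or 12.8. Sham replicate 1 accounted for 10 of them and burn replicate 6 for 6.

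Sham replicate 1 held the highest sham value of Aif1 (9.90 CPM), Dnajb11 (87.8 CPM), Manf (62.8 CPM), P4hb (164 CPM), Hist1h2bl (3.90 CPM), Rps27 (224 CPM) and the summed ribosomal protein genes (8660 CPM). It held the lowest of Hsp90b1 (178 CPM), Snap25 (1690 CPM) and Tfrc (31.4 CPM). Sham replicate 2 was highest for Cldn5 (42.0 CPM) and the summed endothelial genes (538 CPM), sham replicate 4 was highest for Sh2d3c (20.7 CPM), and sham replicate 3 was lowest for Pdpn (10.6 CPM).

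Burn replicate 6 was highest among burn libraries for Ddit3 (25.6 CPM), Rps27 (130 CPM), Syn1 (1190 CPM), Tmem119 (37.3 CPM) and the summed ribosomal protein genes (6030 CPM), and lowest for Cry1 (8.74 CPM). Burn replicate 8, titled sham, was highest for Atf3 (3.37 CPM), Calb2 (290 CPM), Cux1 (109 CPM) and the summed olfactory bulb genes (1460 CPM), and lowest for Neurod2 (57.3 CPM). Burn replicate 7, also titled sham, was highest for Chaf1a (5.12 CPM) and Ninl (9.94 CPM). Burn replicate 9 was highest for Penk (425 CPM) and the summed striatal genes (1910 CPM).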

How the results depend on the processing

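The 59 calls of burn over sham became 55 with DESeq2 size factors, 41 with burn and sham libraries only and 64 with the mitochondrial share as a covariate. They became 24 with no count filter, 308 by the DESeq2 Wald test (58 shared with the 59), 279 with 2 surrogate variables (55 shared), 26 with no batch term, 1328 in batch 1 alone, 0 in batch 2 alone (1178 at an unadjusted p under 0.05), 32 without the libraries whose labels disagree, 0 with treatment from titles (2098 unadjusted), 6 without sham replicates 1 and 2 and 24 with the area sums as covariates, the last 2 chosen after seeing the data. Leaving out each library in turn gave 19 (without sham replicate 8) to 206 (without burn replicate 6). The 44 calls of burn over excision became 12, 167 and 183 with no filter, the Wald test and surrogate variables, 15 without disagreeing labels, 1 by titles (Tipin), 1318 in batch 1, 0 in batch 2 (490 unadjusted) and 97 with area sums, and 10 to 284 with a library left out. Excision over sham stayed at 0 in every fit run. The batch difference became 4 calls without disagreeing labels.

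A fit with the title number as a replicate block, which also left out disagreeing labels, called 0 genes in burn over sham (2176 unadjusted) and 8 in burn over excision. Whether the numbers pair samples was not in the labels used here, and 2 sham libraries of batch 1 share number 5. Pearson correlations over 15602 genes were -0.49 to 0.33 for same-numbered burn and sham libraries. Values this far below 0 are not correlations of the raw levels. Not every library correlated best with its own number. These correlations cannot decide the question, because samples matched in handling need not be alike in expression.

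None of the 59 genes changed sign in the 32 alternatives. Among the 120 genes read in these fits, uncalled ones did so 16 times: with titles Mbp (0.0145) and Ttr (0.84), in batch 1 Fos (0.0388), Hsp90b1 (0.0505) and Dbp (-0.10), in batch 2 Aif1 (0.0122), C4b (0.11), Bdnf (-0.19), Fkbp5 (0.079), Mbp (0.10), Cldn5 (0.0641), Penk (0.43) and Snap25 (-0.068), with area sums C4b (0.21), without sham replicates 1 and 2 Ttr (0.12) and without sham replicate 1 Ttr (0.23, against a lowest value of -1.97 without burn replicate 5). The cause was not tested.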
